A study of Mus musculus with 4 samples.

Results

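Hepatic macrophages from mice given an antibody against the chemokine CCL3 were compared with hepatic macrophages from mice given an isotype control antibody, within each of 2 sorted fractions. The comparison takes in all 4 arrays of the series, chosen by the treatment label and by the last letter of the sample title, m or p. Each combination of antibody and fraction has 1 array: anti-CCL3 fraction m, anti-CCL3 fraction p, isotype fraction m and isotype fraction p. All 4 came from livers of male C57BL/6J mice with a disease state labelled CRCLM model, and the titles name the surface proteins F4/80 and CD11b as the basis of the fractions. The letters m and p are not spelled out in the labels, and the antibody dose, the timing and the number of animals per array are not stated in the labels. Nothing in the labels says that arrays came from separate animals, so p-values measure only the spread between these arrays, which may be technical. In these bulk samples, fewer cells of a type and less RNA per cell cannot be told apart.

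CCL3, also called MIP-1alpha, is an inflammatory chemokine that is secreted by macrophages and other leukocytes. It binds the G protein-coupled receptor CCR1 and draws monocytes, macrophages and T cells into inflamed tissue and tumours. An antibody of this kind acts on the secreted protein, so the transcript of Ccl3 itself need not follow the treatment. The arrays also carry probe sets for many small RNAs. Small nucleolar RNAs (snoRNAs) guide chemical modification of other RNAs, small nuclear RNAs (snRNAs) form the cores of the spliceosome, and microRNAs repress messenger RNAs that pair with a seed of 7 bases near their 5′ end.

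With predicted and olfactory genes left out, microRNA genes made up 13 of the 24 genes with the largest antibody difference by the smallest of 4 differences (both fractions, deposited and quantile-normalised values). Of the 65956 transcript clusters on the array, 686 belonged to microRNA genes, and their share of the tested genes is not given here. Whether 13 of 24 exceeds that share was not tested, so the count only describes the ranking. In deposited values the class was widely spread. Its interquartile range was -0.21 to 0.36 in fraction m and -0.32 to 0.26 in fraction p. All clusters had -0.14 to 0.25 and -0.18 to 0.24. Between fractions, the differences of microRNA clusters had a Pearson r of 0.03, against 0.11 for all clusters. Mature sequences of some of these genes are shown first. They are printed 5′ to 3′ from RefSeq (GRCm38.p6), with the seed, bases 2 to 8, in capitals. The first pair belongs to 1 gene family and shares its seed, and the genes behind it had opposite antibody differences. The next 2 are both arms of the gene that stood highest with anti-CCL3 antibody by the smallest of 4 differences. Then come Mir3964 and Mir3475, the microRNA genes that follow Mir1b among the lower ones by this measure; no sequence is shown for Mir1b. The last is from a lower gene whose product is known from colorectal tumours.
miR-302b-3p: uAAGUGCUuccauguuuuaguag
miR-302d-3p: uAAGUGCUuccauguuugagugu
miR-190b-5p: uGAUAUGUuugauauuggguug
miR-190b-3p: aCUGAAUGucaagcauacucuca
miR-3964: aUAAGGUAgaaagcacuaaa
miR-3475-5p: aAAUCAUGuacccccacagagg
miR-3475-3p: uCUGGAGGcacaugguuugaa
miR-31-5p: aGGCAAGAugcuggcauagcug
Of 615 microRNA symbols on the array, 504 were matched to RefSeq sequences. The labels do not say whether a microRNA probe set reads the precursor or the mature form.

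The medians of the 65956 transcript clusters, the array's gene-level probe sets, were 6.18 to 6.21 on the 4 arrays (log2 signal). The labels do not state the scale; log2 is what RMA usually yields, and a fold holds only if the values are plain log2. The bright end differed more: the 99th percentile was 15.6 with anti-CCL3 antibody and 15.2 with isotype control in fraction m, and 15.2 and 14.5 in fraction p. Both isotype arrays were thus dimmer at the bright end than their anti-CCL3 partners. The highest value of the data was shared by many clusters. In fraction m these were 197 with anti-CCL3 antibody and 194 with isotype control, and in fraction p 194 and 139. Differences of clusters at this shared value may be cut short, and the cause of the ties was not tested. The labelled cell type is not clearly seen in its own transcripts. A list of 19 measured transcripts that leukocytes make in abundance had a median level of 6.12, and 20 Kupffer cell markers one of 6.38, against 6.34 for the negative-control probe sets (interquartile range 5.27 to 7.84). The part of this low signal in the results below was not tested.

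Higher signals after anti-CCL3 antibody were more common than lower ones in the deposited values, and most of that excess went away once the arrays were given the same distribution. Over all clusters, the median difference between anti-CCL3 and isotype was 0.04 in fraction m and 0.01 in fraction p (log2). Both differences were above 0 in 30.1% of clusters and below 0 in 21.5%. After quantile normalisation, which makes the 4 distributions alike, the medians were -0.01 and -0.02, and the shares were 23.8% and 27.6%. The differences were tied to brightness. In the brightest 10% of clusters the medians were 0.30 and 0.31 in fractions m and p in the deposited values and -0.02 and -0.03 after quantile normalisation. In the dimmest 10% they were -0.01 and -0.01, and 0.01 and -0.01.

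The antibody difference of one fraction told little about that of the other. Across the 65956 clusters, both differences had a Pearson r of 0.111 in the deposited values and 0.043 after quantile normalisation, given as a description, since clusters share arrays and some have identical values. In the additive limma model, with antibody and fraction as terms, 0 of 15032 genes (0.0%) had a Benjamini-Hochberg adjusted p below 0.05, and 0.354 was the smallest. At an unadjusted p below 0.05 stood 973 genes that were higher after anti-CCL3 antibody (6.47%) and 207 that were lower (1.38%). After quantile normalisation this split was 568 and 424, and the smallest adjusted p in limma was 0.647. The model leaves 1 residual degree of freedom, and an exact permutation of 2 against 2 arrays cannot give a two-sided p below 0.333. Results are therefore given as paired differences, with a log2 difference of 1, which is 2-fold on a plain log2 scale, as a mark of size. At least 1 in both fractions was reached by 486 clusters that were higher (0.737%) and 66 that were lower (0.1%). After quantile normalisation 264 (0.4%) and 112 (0.17%) reached it, and on both value sets at once 264 (0.4%) and 66 (0.1%).

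The largest set of clusters that stood higher in both fractions with anti-CCL3 antibody was a run of snoRNA genes on chromosome 7. In the RefSeq gene table (GRCm38.p6, used for names and neighbours only), 134 snoRNA genes lie between Ube3a and Ipw, and 133 clusters on the array carry their symbols. This is the place of the Snord115 repeat, an imprinted series of near-identical C/D box snoRNAs known from brain and processed from the introns of the long host transcript Snhg14. The symbols in the files are Gm numbers, and their membership in Snord115 was not read from sequence. The median level of the 133 clusters was 10.36 with anti-CCL3 antibody and 8.68 with isotype control in fraction m, and 8.60 and 6.61 in fraction p. The median paired difference was 2.10 (fraction m) and 2.27 (fraction p), and it was 1.53 and 2.24 after quantile normalisation. Within each fraction the anti-CCL3 array was the higher one, while the anti-CCL3 array of fraction p and the isotype array of fraction m had nearly the same median.

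**Figure D1:**
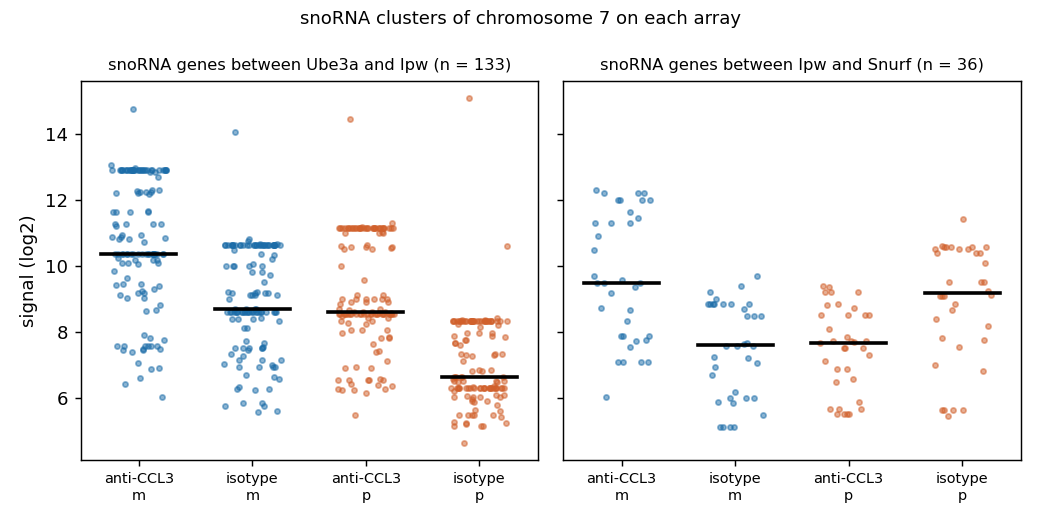
Signal (log2) of the snoRNA clusters between Ube3a and Ipw (left, n = 133) and between Ipw and Snurf (right, n = 36) on each of the 4 arrays; points are clusters and black bars medians. On the left the anti-CCL3 medians, 10.36 and 8.60, lie above the isotype medians of the same fraction, 8.68 and 6.61, and on the right the order turns between fractions.

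Of these 133 clusters, 125 were higher with anti-CCL3 antibody in both fractions, 2 were lower in both and 6 had opposite signs. A difference of at least 1 on both value sets and in both fractions was found in 105 of them (78.9%), against 0.4% of all clusters. They made up 105 of the 109 snoRNA clusters that reached this mark in the higher direction, and 264 clusters of any kind did, 104 of them with no symbol listed. The remaining 4 snoRNA clusters lay on 4 other chromosomes. Of the 131 members tested in limma, 112 had an unadjusted p below 0.05, all of them higher, and 0 passed Benjamini-Hochberg adjustment (adjusted p 0.354 to 1.0). The background for that count is the 6.47% of all tested genes given above, which includes these members. The run was singled out after its values were seen, and many members have identical values. Its counts against the background are therefore a description and no test of the run.

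Members of the run are not independent. The 133 clusters held 55 distinct sets of 4 values, and clusters with identical values on every array cannot be told apart. The most common set, carried by 33 clusters such as Gm22449, read 12.91 with anti-CCL3 antibody and 10.63 with isotype control in fraction m, and 11.16 and 8.33 in fraction p. Its paired differences were 2.27 and 2.83, with a fitted difference of 2.55 ± 0.20 (SE, 4 arrays; limma adjusted p 0.354). The next, carried by 23 clusters such as Gm22050, read 10.36 and 8.61 in fraction m and 8.55 and 6.29 in fraction p, and its fitted difference was 2.01 ± 0.19 (SE). Counting each distinct set once, 33 of 55 (60.0%) reached the mark of size on both value sets, and the medians were 1.89 and 1.99. The highest members by the smallest of the 4 differences were Gm24657, with 2.96 (fraction m) and 2.90 (fraction p), and Gm25314, with 3.27 and 2.68. The 28 members below the mark included 20 that were still higher in both fractions, and over all members the difference ran from -0.62 to 3.27 in fraction m.

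The run also differed between fractions, by about as much as between antibodies. The median over clusters of fraction p minus fraction m was -1.75 with anti-CCL3 antibody and -2.30 with isotype control. The bright end of the arrays moved in the same direction as the antibody difference: 97 of the 133 clusters (72.9%) lay in the brightest 10% of all clusters, where the median deposited differences were 0.30 and 0.31. After quantile normalisation the medians of that brightest 10% were -0.02 and -0.03, and those of the run were 1.53 and 2.24. The part of brightness in the run's differences was not tested.

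The next run along the chromosome had differences of opposite sign in the 2 fractions. Between Ipw and Snurf, the place of the Snord116 repeat, RefSeq lists 69 snoRNA genes and the array has 36 clusters with 22 distinct sets of values. Their median level was 9.48 with anti-CCL3 antibody and 7.58 with isotype control in fraction m, but 7.67 and 9.18 in fraction p. The paired differences were 2.00 (fraction m) and -1.23 (fraction p), and 1.88 and -1.87 after quantile normalisation. Opposite signs were found in 34 of 36 clusters, and 0 of the 31 tested members had an unadjusted p below 0.05 in limma (0 adjusted). A description by fraction shows the same: p minus m was -1.97 with anti-CCL3 antibody and 1.55 with isotype control.

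Neighbouring genes of the domain had small or uneven differences. Snhg14, the host transcript, read 6.49 and 6.32 after anti-CCL3 and isotype antibody in fraction m and 6.40 and 6.58 in fraction p at its brighter cluster, with a fitted difference of -0.01 ± 0.15 (SE; limma adjusted p 1.0). Ube3a, a ubiquitin ligase gene whose paternal copy is silenced in neurons, had paired differences of 0.67 and 0.19. Ndn, a paternally expressed gene of the same domain, had -0.73 and 0.29. Snord64, itself a member of the run between Ipw and Snurf, had 0.18 and 0.42. Magel2, Mkrn3, Peg12 and Atp10a lay between -0.27 and 0.10. None of these genes but Snhg14 was bright enough to be tested. The other 828 snoRNA and Cajal body RNA clusters of the array had median differences of 0.11 and 0.01, and of -0.02 and -0.12 after quantile normalisation, close to those of all clusters.

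**Figure D2:**
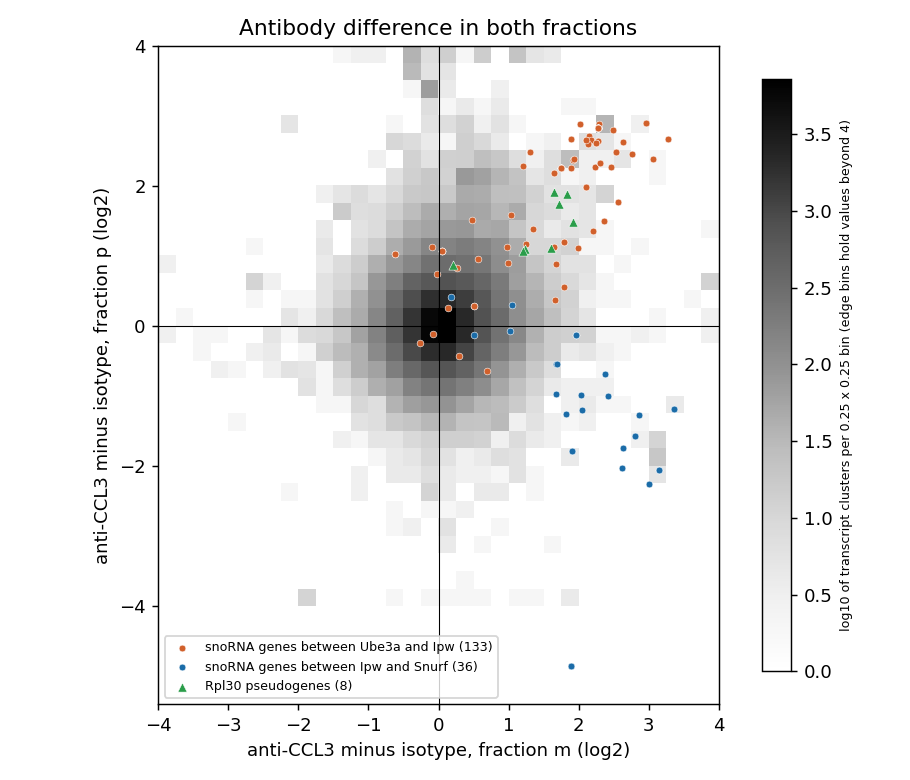
Antibody difference (anti-CCL3 minus isotype, log2, deposited values) in fraction m against fraction p; grey bins count all 65956 transcript clusters, and coloured points mark the 133 snoRNA clusters between Ube3a and Ipw, the 36 between Ipw and Snurf and 8 Rpl30 pseudogenes. Most of the first set and the Rpl30 pseudogenes lie at the upper right, and most of the second at the lower right.

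Among whole transcript classes, the mitochondrial genome, 5S ribosomal RNA and snRNA genes had the highest deposited differences, and quantile normalisation lowered them. The 94 clusters of 5S ribosomal RNA genes, which encode the small RNA of the large ribosomal subunit, had medians of 0.79 in fraction m and 0.24 in fraction p. These became 0.41 and -0.02, and the share that was higher in both fractions went from 74.5% to 8.51%. In this class 68 of 94 clusters lay in the brightest 10%. The 5S clusters held 39 distinct sets of values, so most repeat each other. One member stood apart: n-R5s71 read 10.08 with anti-CCL3 antibody and 8.06 with isotype control in fraction m, and 9.27 and 6.65 in fraction p. Its differences of 2.01 and 2.63 were still 1.63 and 2.59 after quantile normalisation (fitted 2.32 ± 0.22, SE; limma adjusted p 0.354). The second highest, n-R5s2, had 0.78 and 0.63, and the lowest, n-R5s195 and n-R5s60, had -0.36 and -0.59, and -0.13 and -0.39.

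The 927 snRNA clusters had medians of 0.34 and 0.37, and 0.04 and 0.28 after quantile normalisation. The upper quartile of the deposited difference was 1.39 in fraction p and 0.61 in fraction m. Both differences were above 0 in 52.1% of snRNA clusters and below 0 in 13.4%, against 30.1% and 21.5% of all clusters. After quantile normalisation these shares were 34.6% and 18.4%, against 23.8% and 27.6%. At least 1 on both value sets was reached by 17 higher snRNA clusters (1.83%, against 0.4% of all). The snRNA genes with the highest smallest difference were Gm26230, with 3.06 (fraction m) and 2.39 (fraction p), and Gm25899, with 3.85 and 2.52. Gm26230 lies on chromosome 7 and had the same differences as Gm26498, a member of the snoRNA run between Ube3a and Ipw. It is therefore not a result apart from that run. The lowest were Gm22221, at -1.97 and -6.60, and Gm24285, at -1.27 and -1.69. In fraction p Gm22221 read 4.44 with anti-CCL3 antibody and 11.05 with isotype control, while its isotype value in fraction m was 10.99 and its anti-CCL3 value 9.02, so a single array stood apart from the other 3.

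Transcripts of the mitochondrial genome, which encodes subunits of the respiratory chain, had medians of 0.55 and 0.26 over 7 named clusters, and 0.35 and 0.12 after quantile normalisation. Over all 30 clusters of the mitochondrial chromosome, named or not, the medians were 0.74 and 0.40. ND6, a subunit of complex I, read 19.50 and 19.04 in fraction m and 16.95 and 16.18 in fraction p, a difference of 0.45 and 0.77. ND2, another subunit, had 0.55 and 0.26. ND3 had 0.10 and -0.37, and its sign in fraction m turned to -0.48 after quantile normalisation.

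The classes that hold most genes stood near 0. The 17922 other protein-coding clusters had medians of 0.02 and 0.00, and -0.01 and -0.01 after quantile normalisation. Of these, 22 (0.123%) were higher by at least 1 in both fractions and 1 was lower in the deposited values. On both value sets 1 remained in each direction, Gm7429 at 1.55 and 1.71 and Arl14 at -1.04 and -2.21. Immunoglobulin segments (212 clusters) had medians of 0.08 and 0.01, and T cell receptor segments (137) 0.05 and 0.05. Long noncoding RNAs (3271) had 0.04 and 0.01, and olfactory and vomeronasal receptors (1723) 0.06 and 0.02. The olfactory class still held 6 clusters higher and 7 lower by at least 1 on both value sets. These were 0.348% and 0.406% of the class, against 0.4% and 0.1% of all clusters. The highest olfactory receptors were Olfr11 at 1.92 and 1.62 and Olfr481 at 1.78 and 1.62. Their lowest members were Olfr1140 at -1.33 and -2.15 and Olfr833-ps1 at -1.90 and -1.17. Negative-control probe sets had medians of 0.04 and 0.00.

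**Figure D3:**
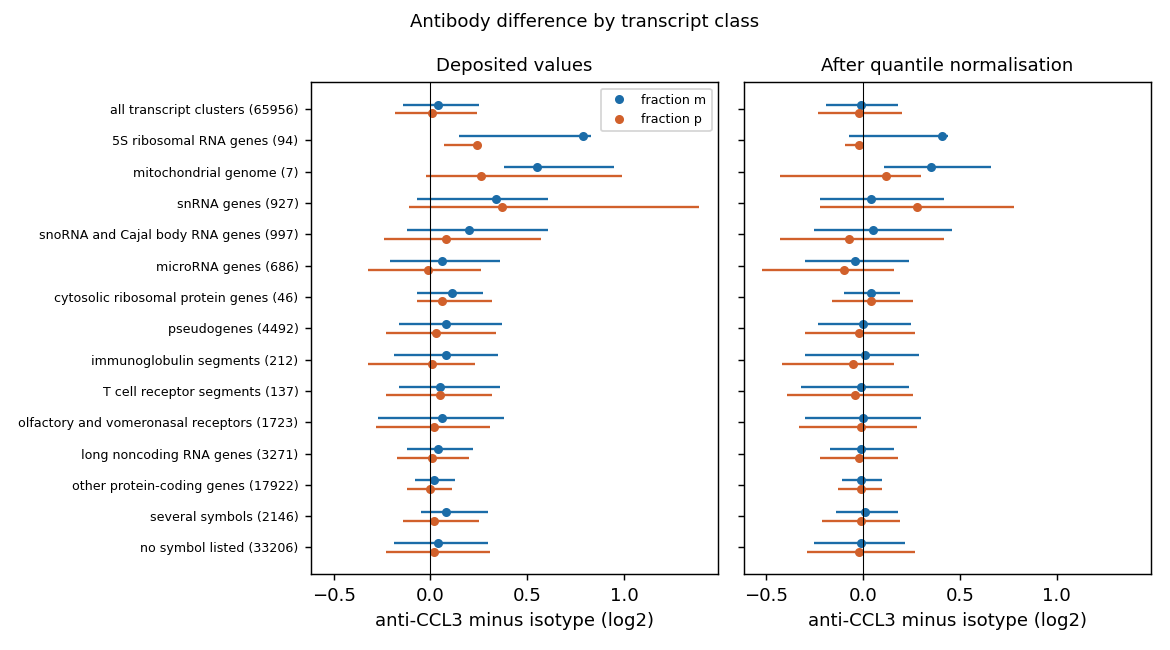
Median (points) and interquartile range (lines) of the antibody difference (anti-CCL3 minus isotype, log2) by transcript class, for fractions m and p, in the deposited values (left) and after quantile normalisation (right); numbers of clusters are in brackets. The 5S, mitochondrial and snRNA classes lie to the right of 0 on the left, with medians from 0.24 to 0.79, and closer to 0 on the right.

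Pseudogenes of ribosomal protein genes leaned to the higher side, and all 8 measured ones of Rpl30 did. Processed pseudogenes are copies of messenger RNAs set into the genome, and their probe sets can read the parent transcript. All 8 Rpl30 pseudogene clusters, spread over 5 chromosomes, were higher with anti-CCL3 antibody in both fractions, 7 of them by at least 1 in the deposited values and 4 on both value sets. Rpl30-ps9 read 9.11 with anti-CCL3 antibody and 7.27 with isotype control in fraction m, and 9.26 and 7.37 in fraction p. Its fitted difference was 1.86 ± 0.11 (SE, 4 arrays; limma adjusted p 0.354), with 1.52 and 1.78 after quantile normalisation. Both anti-CCL3 arrays lay above both isotype arrays. Rpl30-ps10 had 1.72 and 1.75, Rpl30-ps1 1.65 and 1.92, and Rpl30-ps8 1.92 and 1.49. The least was Rpl30-ps5, with 0.20 and 0.87.

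Over all 220 pseudogene clusters of ribosomal protein genes, the medians were 0.19 and 0.25, and 0.09 and 0.14 after quantile normalisation. In the deposited values 117 were higher in both fractions and 24 lower in both, against 30.1% and 21.5% of all clusters. The family counts below are also on deposited values, in which the brightest 10% of clusters had medians of 0.30 and 0.31. Families differed. Rpl21 pseudogenes were higher in both fractions in 12 of 13 clusters (medians 0.74 and 0.85) and Rps19 pseudogenes in 11 of 13 (0.44 and 0.68). Rpl35a pseudogenes had 0.13 in fraction m but 2.10 in fraction p, and Rps18 pseudogenes had opposite signs in 6 of 6 clusters (0.10 and -0.16). The 46 clusters of cytosolic ribosomal protein genes themselves had medians of 0.11 and 0.06. Rps26, a small-subunit protein gene, led them with 2.02 and 2.35, but that cluster lies on chromosome 12 and the gene on chromosome 10. The cluster on chromosome 10 had 0.10 and -0.05. Rpl37a followed with 0.74 and 0.48, and clusters named Rpl41 were lowest, at -0.37 and -0.21, and -0.19 and -0.98.

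MicroRNA genes had medians near 0 as a class, and a few of them had large differences. Their 686 clusters had medians of 0.06 and -0.01, and -0.04 and -0.10 after quantile normalisation, with 6 clusters higher and 5 lower by at least 1 on both value sets (0.875% and 0.729%, against 0.4% and 0.1% of all clusters). Mir190b had the largest smallest difference of all tested genes outside the predicted and olfactory ones. It read 10.16 with anti-CCL3 antibody and 6.51 with isotype control in fraction m, and 10.62 and 5.34 in fraction p. The paired differences were 3.65 and 5.27, and the fitted difference was 4.46 ± 0.51 (SE; limma adjusted p 0.444, and 0.647 after quantile normalisation). Both anti-CCL3 values lay above both isotype values by more than 3 log2 units. At the other end, Mir1b read 6.24 and 9.20 in fraction m and 6.44 and 11.0 in fraction p, with differences of -2.97 and -4.56 (fitted -3.76 ± 0.50, SE; limma adjusted p 0.483).

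Members of the miR-302 family, whose mature forms are known from embryonic stem cells, had differences of either sign. Mir302b read 7.09 with anti-CCL3 antibody and 5.06 with isotype control in fraction m, and 7.99 and 4.89 in fraction p. Mir302d, which shares the seed AAGUGCU of its 3p form, read 6.50 and 7.52 in fraction m and 6.50 and 8.73 in fraction p. Their differences were thus 2.03 and 3.10 for Mir302b, and -1.02 and -2.23 for Mir302d. Mir302c had 0.18 and 1.70, Mir302a -2.04 and 0.49, and Mir367, the last gene of the cluster, -0.63 and 0.57. These 5 genes lie beside each other on chromosome 3. Across the array, 103 pairs of neighbouring microRNA genes within 10000 bases on 1 strand had the same sign of mean difference in 60 pairs (58.3%), with a Pearson r of 0.12 and a Spearman rho of 0.07 over pairs, given as a description.

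The remaining named microRNA genes were mostly uneven between fractions. Mir6371 had 1.54 in fraction m and 5.90 in fraction p, Mir501 2.39 and 1.26, and Mir5127 1.69 and 2.73. On the lower side, Mir31, whose product is known to be raised in colorectal tumours, read 6.88 and 8.71 in fraction m and 8.27 and 9.18 in fraction p, a difference of -1.83 and -0.91. Mir193b read 9.54 and 10.95 in fraction m and 10.44 and 11.41 in fraction p, a difference of -1.41 and -0.97. Mir3475, Mir3964, Mir7652 and Mir450b had differences from -2.78 to -0.89 in each fraction. The cluster named Mir7652 lies on chromosome 1, although RefSeq places the gene on chromosome 11.

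Among the named genes that encode proteins or belong to other classes, few have a known role in macrophages. Ear-ps8, a pseudogene of the eosinophil-associated ribonucleases, read 8.34 and 7.05 in fraction m and 8.21 and 6.53 in fraction p (fitted 1.48 ± 0.16, SE; limma adjusted p 0.414). On the lower side stood Ighv8-13, a heavy chain variable segment, at -1.63 and -1.70, the small GTPase gene Arl14, the keratin-associated protein gene Krtap4-1 at -0.94 and -1.26, and Prl3d2, a placental member of the prolactin family, at -0.92 and -0.96. Over all 24 named genes the adjusted p of limma ran from 0.354 to 0.682, and from 0.647 to 0.782 after quantile normalisation.

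**Figure D4:**
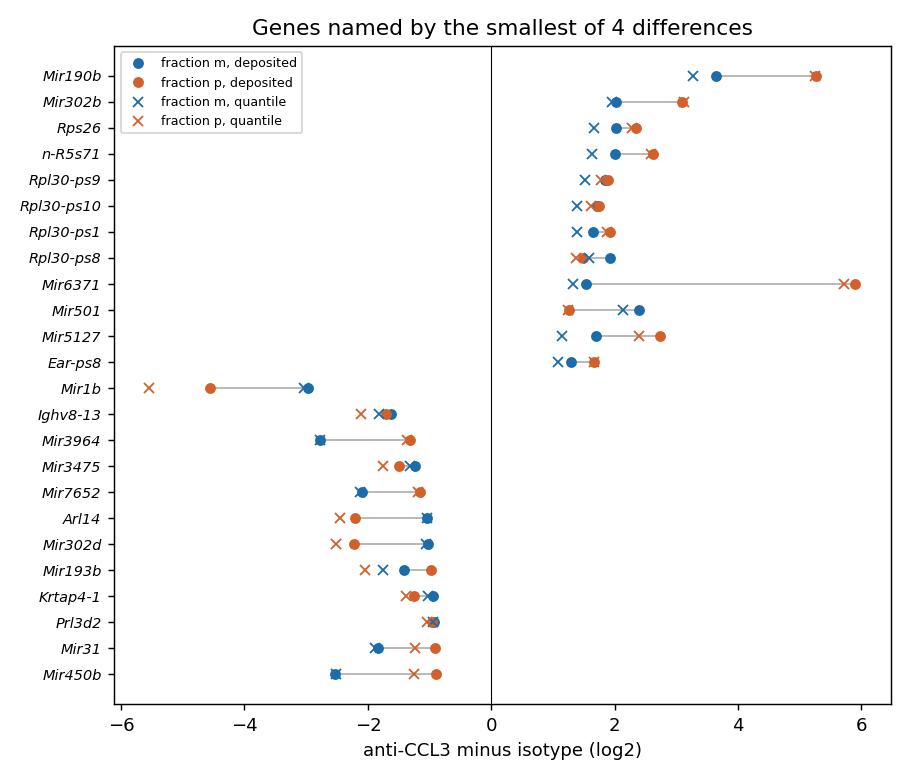
Antibody difference (anti-CCL3 minus isotype, log2) of the 12 highest and 12 lowest tested genes by the smallest of 4 differences, predicted and olfactory genes left out, with circles for deposited and crosses for quantile-normalised values in fractions m and p. Mir190b lies highest, with deposited differences of 3.65 and 5.27, and Mir6371 has the widest gap between fractions, 1.54 against 5.90.

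The transcript of the antibody's target had opposite differences in the 2 fractions, while 5 of 9 listed ligands and both measured receptors were lower in both fractions, none of them past the test where one was made. Ccl3 read 7.80 with anti-CCL3 antibody and 7.99 with isotype control in fraction m, and 7.64 and 7.44 in fraction p. The difference was -0.20 (fraction m) and 0.20 (fraction p), and the values of both antibodies overlapped. Ccr1, its receptor on monocytes and macrophages, read 5.39 and 5.50 in fraction m and 4.90 and 5.40 in fraction p. These differences of -0.11 and -0.50 were not tested, since the gene's mean of 5.30 lay below the 6.16 required, and it also lay below the negative-control median. Ccr3, a receptor of eosinophils, had -0.15 and -0.29, also untested. The decoy receptor gene Ackr2 had no probe set of its own.

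Of the 9 ligands listed with CCL3, 0 were higher in both fractions, 5 were lower in both and 4 had opposite signs. Over all 30063 genes, 30.0% were higher in both and 21.5% lower in both. Among the 6 tested ligands, 0 had an unadjusted or adjusted p below 0.05 in limma. Ccl2, which draws monocytes through CCR2, read 6.68 with anti-CCL3 antibody and 7.43 with isotype control in fraction m, and 7.10 and 7.23 in fraction p, so that the larger gap lay in fraction m. Its fitted difference was -0.44 ± 0.22 (SE; limma adjusted p 0.736). Ccl4 and Ccl5, inflammatory chemokine genes of the same family, had -0.08 and -0.01, and -0.09 and -0.09. Ccl8 had -0.17 and -0.13 and Ccl12 -0.22 and -0.07. The CCR1 ligands Ccl6 and Ccl9 were higher in fraction m, by 0.27 and 0.24, and lower in fraction p, at -0.14 and -0.20, and Ccl7 had -0.26 and 0.32.

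**Figure D5:**
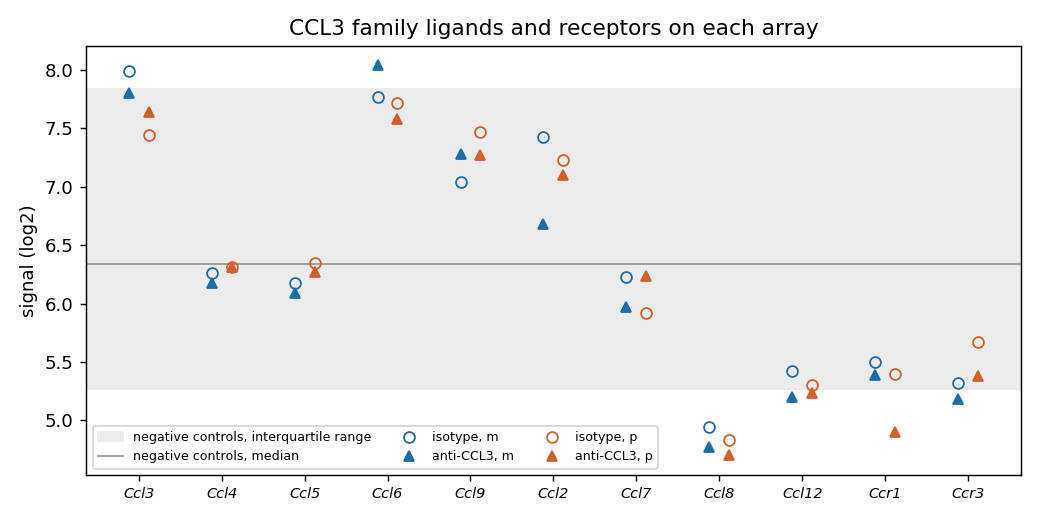
Signal (log2) of 9 CCL3 family ligands and 2 receptors on each array, with triangles for anti-CCL3 antibody, circles for isotype control, and fractions m and p side by side; the grey band spans the middle quartiles of the negative controls, 5.27 to 7.84. Ccl3 lies between 7.44 and 7.99, and the gap of Ccl2 between antibodies is wider in fraction m than in fraction p.

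Genes downstream of the CCL3 receptors and other chemokine genes also lay near the background. Of 24 measured signalling genes (G protein subunits, kinases, regulators), 9 were higher in both fractions and 5 lower in both, and 0 of 10 tested had an unadjusted p below 0.05 in limma. Over all genes 30.0% were higher in both and 21.5% lower in both. Gnai2, the inhibitory G protein subunit that couples chemokine receptors, had 0.11 and 0.43, and Rac1, a GTPase of cell migration, 0.12 and 0.29. The lowest were Rgs16, a brake on G protein signalling, with 0.20 and -0.68, and Akt1, with -0.01 and -0.26. Of 15 other chemokine receptors 6 were higher in both fractions and 1 lower, with medians of 0.16 and 0.05. After quantile normalisation 4 were higher and 2 lower, with medians of 0.01 and 0.07. Cxcr2, the neutrophil receptor, read 6.97 and 6.57 in fraction m and 6.57 and 6.10 in fraction p (fitted 0.44 ± 0.11, SE; unadjusted p 0.0374, limma adjusted p 0.592). Ccr8 and Cxcr1 were highest, at 0.38 and 0.62, and 0.90 and 0.05, and Cxcr6 and Ccr10 lowest, at -0.39 and 0.05, and -0.09 and -0.27. Among 26 other chemokine ligands, 5 were higher and 5 lower in both fractions. Ccl11, the eosinophil attractant eotaxin, read 7.53 and 7.98 in fraction m and 7.19 and 7.65 in fraction p, and its difference of -0.46 ± 0.11 (SE) had an unadjusted p of 0.0328 and a limma adjusted p of 0.582. Ccl17 was highest, at 0.49 and 0.18, followed by Cxcl5, at 0.59 and -0.02. Xcl1, at -0.75 and 0.03, stood beside Ccl11 at the low end.

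Markers of cell types that a liver sort could hold had medians near that of all genes, which was 0.04 in fraction m and 0.00 in fraction p. Over all genes 30.0% were higher in both fractions and 21.5% lower in both. Kupffer cell markers, the resident liver macrophages, had medians of 0.01 and 0.00, with 4 of 20 higher and 4 lower in both fractions. The transcription factor gene Spic had 0.15 and 0.31 and the complement gene C1qb 0.20 and 0.24, while Vcam1 had -0.25 and -0.17 and Adgre1, which encodes F4/80, -0.08 and -0.25. Monocyte markers had 0.06 and 0.08, with 7 of 18 higher and 1 lower in the deposited values. After quantile normalisation 5 were higher and 3 lower. Ly6c2, which marks inflammatory monocytes, read 5.88 and 5.18 in fraction m and 5.56 and 5.13 in fraction p, and S100a8 had 0.51 and 0.26. S100a4, at -0.10 and -0.20, and Lyz2, at -0.44 and 0.20, were lowest. Ly6c2 and S100a8 were too dim to be tested, at 5.44 and 5.16 on average.

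Lists for other cell types had medians between -0.08 and 0.16. Neutrophil markers had medians of 0.07 and -0.04, dendritic cell markers 0.13 and -0.01, T cell markers 0.08 and 0.05, NK cell markers 0.09 and -0.05 and B cell markers -0.01 and 0.04. Hepatocyte markers had 0.16 and -0.08, endothelial markers -0.01 and 0.05, stellate cell markers 0.04 and 0.07 and colorectal tumour markers -0.05 and 0.03. Of the 13 measured proliferation genes, 2 were higher and 8 lower in both fractions, where all genes had 30.0% and 21.5%, with medians of -0.06 and -0.06, led at the low end by Mki67 at -0.19 and -0.19 and Top2a, a topoisomerase of dividing cells, at -0.20 and -0.17. The list's level had a median of 5.74, below the negative-control median, and 2 of its members were tested.

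Among activation genes the largest difference was that of Retnla, whose secreted protein marks alternative activation of macrophages. It read 8.06 and 7.19 in fraction m and 8.14 and 6.70 in fraction p, with a fitted difference of 1.15 ± 0.21 (SE; unadjusted p 0.0149, limma adjusted p 0.493). Both anti-CCL3 values lay above both isotype values, and the differences after quantile normalisation were 0.69 and 1.40. The rest of the list did not follow it. Of 17 alternative activation genes 5 were higher and 2 lower in both fractions, where all genes had 30.0% and 21.5%. Il10, an anti-inflammatory cytokine gene, had -0.32 and -0.60. Of 15 pro-inflammatory genes 4 were higher and 5 lower, with Il1a at 0.73 and 0.16 and Il12a at 0.47 and 0.28 highest, and Il1b at 0.12 and -0.48 and Il23a at -0.28 and -0.05 lowest. Among 16 interferon response genes 4 were higher and 6 lower. Ifi27l2a, an interferon-induced gene, read 5.78 and 6.79 in fraction m and 6.27 and 6.75 in fraction p (fitted -0.74 ± 0.20, SE; unadjusted p 0.0391, limma adjusted p 0.596). Over all 24 lists, 157 of 308 measured genes were tested, 0 passed the adjusted threshold, and 4 had an unadjusted p below 0.05, Retnla and Cxcr2 higher and Ccl11 and Ifi27l2a lower. Over all tested genes 6.47% were higher and 1.38% lower at that p.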

How the data were processed

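Total RNA was amplified and labelled with biotin, per the labels' protocols. The values deposited by the authors are signals per probe set, taken here as log2 although the labels do not state the scale. The submitters' processing notes name RMA and Affymetrix Expression Console, without versions. Genes were named through the platform annotation and RefSeq (GRCm38.p6): 30604 clusters had 1 symbol, 2146 several and 33206 none listed. Per gene the brightest probe set was kept, and 15032 of 30063 genes with a mean of at least 6.16 were tested. limma 3.58.1 in R 4.3.3 fitted antibody and fraction, with Benjamini-Hochberg adjustment at 0.05 (prior degrees of freedom 1.69). On simulated data with known differences the fit was checked for their size and direction. Quantile normalisation ran over all clusters. Alternatives were median centring, cyclic loess, other filters, no fraction term, a variance trend and each fraction alone. Named genes were Ccl3, Ccr1, the CCL3 ligands and receptors, the 12 highest and 12 lowest tested genes by the smallest of 4 differences (both fractions, both value sets; predicted and olfactory genes left out), and 2 members at each end of lists and classes described. The snoRNA runs, Rpl30 pseudogenes and miR-302 group were singled out after their values were seen, and members and lists were chosen with earlier results of these data known.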

Additional observations from a re-analysis of the deposited data

Results flagged for a closer look

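Results with opposite antibody differences in fractions m and p are given here as values; the difference between fractions rests on 1 array per combination and was not tested. The snoRNA genes between Ipw and Snurf had a median of 2.00 in fraction m and -1.23 in fraction p. Among the ligands of the CCL3 family, Ccl3 had -0.20 and 0.20, Ccl6 0.27 and -0.14, Ccl7 -0.26 and 0.32, and Ccl9 0.24 and -0.20. In the miR-302 group, Mir302a had -2.04 and 0.49 and Mir367 -0.63 and 0.57.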

How the results depend on the processing

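The count of genes at an adjusted p below 0.05 in limma was 0 under all 8 alternatives run with a test. For the 24 named genes all 220 alternative values kept their direction. These genes were picked by the smallest of 4 differences, over both fractions and over deposited and quantile-normalised values. Their quantile-normalised and single-fraction values could therefore not turn, and the other fits reuse the same arrays, so this agreement is no separate check. Of 15032 tested genes, 973 were higher at an unadjusted p below 0.05 in limma. This count was 568 after quantile normalisation and 543 without the fraction term. Among protein-coding genes alone it was 433, but of 9535 tested. The count of lower genes, 207, was 424 after quantile normalisation and 397 after cyclic loess. With no filter on dim genes it was 546, but of 30063 tested. Counts from fits with unlike numbers of tested genes cannot be compared directly. The mean of both differences had a median of 2.07 in the snoRNA run between Ube3a and Ipw, 1.80 after quantile normalisation, 1.81 after cyclic loess and 1.92 with 1 cluster per distinct set of values, chosen after seeing the data, and it was 2.10 to 2.27 with a single fraction. For snRNA genes it was 0.24 after quantile normalisation, 0.27 after cyclic loess and 0.60 in clusters at or above the median level. For other protein-coding genes it was -0.01 after quantile normalisation and after median centring. Ccl3, at 0.00, was at -0.13 after quantile normalisation, -0.11 after cyclic loess, and -0.20 to 0.20 with a single fraction. Ccl6 turned to -0.09 and -0.05 after quantile normalisation and cyclic loess, and Ccl9 likewise to -0.09 and -0.05. With a single fraction Ccl6 was at -0.14, Ccl9 at -0.20 and Ccl7 between -0.26 and 0.32. The correlation between fractions, 0.111, was 0.043 after both quantile normalisation and cyclic loess; the share of clusters with the same sign was 51.6% after quantile normalisation, 52.5% after median centring, 51.7% after cyclic loess and 54.0% in clusters at or above the median level. The cause of these changes was not tested. The fraction letter, the only pairing in the labels, is a term of the fit. A count of genes past a threshold could not be had from a single fraction. Signals near the negative controls limit what can be said of dim genes, and 4 arrays limit the precision.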
